A study of Mus musculus with 3 samples.

Results

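The genes described here are 8 that handle or sense steroids: the enzymes *Sult1e1*, *Cyp1b1*, *Hsd11b1*, *Hsd17b11* and *Aox3*, and the receptors *Nr3c1*, *Nr3c2* and *Esr1*. They were chosen by symbol from the 32285 genes counted, with their levels by cell class, fibroadipogenic progenitor (FAP) state and library already known, so every level and difference given for them is a description without a test. The study applied single-cell RNA sequencing (10x Genomics 3′ chemistry) to mononuclear cells released by collagenase digestion from the costal diaphragm, the main muscle of inspiration, and sorted as DAPI-negative live cells. Each of the 3 libraries pooled 2 male mice, with no record of which cell came from which mouse, and all were prepared on the same day. WT CD came from C57BL/6J mice on normal chow, WT HFD from C57BL/6J mice on a diet with 45% of its energy from lipid, and KO HFD from *Thbs1*-/- mice (B6.129S2-Thbs1tm1Hyn/J) on the same high-fat diet. Every mouse had been on its diet for 6 months from 2 months of age, and the *Thbs1* deletion is present in the whole body, not in one cell type.

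Sulfation by SULT1E1 (estrogen sulfotransferase) blocks estrogens from binding their receptor, CYP1B1 hydroxylates estrogens and other lipids, and 11β-HSD1, the product of *Hsd11b1*, regenerates active glucocorticoid from its inert form inside the cell. HSD17B11 is a 17β-hydroxysteroid dehydrogenase found on lipid droplets, and AOX3 is a molybdenum-containing aldehyde oxidase that oxidises aldehydes and many ring compounds. *Nr3c1* encodes the glucocorticoid receptor, *Nr3c2* the mineralocorticoid receptor and *Esr1* estrogen receptor alpha, which all act as ligand-bound transcription factors. FAPs are the PDGFRα-positive stromal cells of muscle, from which fat and scar tissue can arise.

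The libraries held 4132 cells and 34312860 unique molecular identifiers (UMIs) in WT CD, 3774 cells and 31967976 UMIs in WT HFD, and 4369 cells and 36478779 UMIs in KO HFD, with medians of 7632.5, 8041.5 and 7554 UMIs per cell. A further check found 16 barcode sequences present in more than 1 library, which were kept as separate cells. *Thbs1*, the targeted gene, had 4665, 6459 and 5961 UMIs, a level of 136, 202 and 163 CPM (UMIs of a gene scaled to a fixed total per library), over all cells of WT CD, WT HFD and KO HFD. Transcript ends were therefore counted in the KO HFD library too. A 3′ count is no check on a deletion that leaves the transcript's end in place, and which exons the allele lacks was not examined, so KO HFD means here the library labelled as such. FAP-like clusters, named from *Pdgfra*, *Pdgfrb*, *Dcn* and *Osr1*, held 2246, 1993 and 2413 cells with median depths of 8421, 9147 and 8371 UMIs. Their *Dcn* (decorin) level was 16436, 14268 and 15755 CPM in WT CD, WT HFD and KO HFD, and did not exceed 2268 CPM in any of the other 6 classes with at least 50 cells in each library. Intervals below are exact 95% intervals (Poisson for CPM, conditional binomial for ratios, Clopper-Pearson for shares of cells) and cover counting error only, since each group was 1 library.

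*Sult1e1* lies at chr5:87575969-87591594, *Hsd17b11* at chr5:103989762-104021919 and *Cyp1b1* at chr17:79701537-79715061, all on the minus strand of GRCm38. *Aox3* lies at chr1:58113130-58200698 on the plus strand, and *Hsd11b1* at chr1:193221634-193264075 on the minus strand, where it overlaps *Gm38118* on the same strand and *Lamb3* on the opposite strand, so reads in the overlaps are uncertain. *Esr1* lies at chr10:4611593-5005614 and *Nr3c2* at chr8:76899442-77245012, both on the plus strand, and *Nr3c2* overlaps *Gm23260* on the same strand, where reads are likewise uncertain. RefSeq promoters on GRCm38.p6 matched 7 of the 8 genes. The 250 bases before the start site of *Sult1e1* (chr5:87591612-87591861, minus strand), *Cyp1b1* (chr17:79715062-79715311, minus strand) and *Aox3* (chr1:58112886-58113135, plus strand) are shown because these 3 genes were highest in the same FAP state. Each reads 5′ to 3′ on the gene's strand, and capitals mark any AGAACA (steroid receptor half-site), GGTCA (estrogen receptor half-site) or GCGTG (aryl hydrocarbon receptor core) on either strand:
Sult1e1: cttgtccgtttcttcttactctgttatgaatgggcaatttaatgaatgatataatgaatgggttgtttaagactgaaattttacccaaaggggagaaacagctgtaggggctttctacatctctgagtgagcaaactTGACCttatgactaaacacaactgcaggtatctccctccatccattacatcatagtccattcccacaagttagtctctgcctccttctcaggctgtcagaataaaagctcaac
Cyp1b1: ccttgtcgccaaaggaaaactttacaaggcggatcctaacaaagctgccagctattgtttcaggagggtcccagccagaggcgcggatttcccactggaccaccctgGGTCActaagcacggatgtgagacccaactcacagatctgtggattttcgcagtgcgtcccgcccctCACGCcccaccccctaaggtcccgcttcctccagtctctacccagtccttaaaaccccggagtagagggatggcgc
Aox3: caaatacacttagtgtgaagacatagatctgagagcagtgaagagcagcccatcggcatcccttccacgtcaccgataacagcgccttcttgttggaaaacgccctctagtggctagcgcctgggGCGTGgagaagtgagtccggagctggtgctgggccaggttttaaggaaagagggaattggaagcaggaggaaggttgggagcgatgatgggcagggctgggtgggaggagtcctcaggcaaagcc
The *Sult1e1* window held GGTCA once, on the reverse strand, starting 113 bases before the start site. The *Cyp1b1* window held GGTCA at 143 and GCGTG, reversed, at 76 bases before its start, and the *Aox3* window held GCGTG at 125. The *Aox3* window also held CCAAT, reversed, at 70. The AP-1 motif TGANTCA was also searched on both strands and had no match in these 3 windows, and neither did AGAACA or the TATA box TATAAA. Among the 32851 RefSeq promoter windows of this length, 35.2% held GGTCA, 28.2% held GCGTG, 33.8% held CCAAT, 16.1% held AGAACA, 12.4% held TATAAA and 6.75% held TGANTCA, so each match is of a kind that many promoters have. The GC content was 40.8% for *Sult1e1*, 58.0% for *Cyp1b1* and 56.4% for *Aox3*, beside a median of 52.4% over all windows.

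*Sult1e1* transcripts lay almost wholly in FAP-like cells, where 97.1%, 97.1% and 97.4% of its UMIs in WT CD, WT HFD and KO HFD were found. Its level there was 162 CPM (156.6 to 167.8) in WT CD, 48.2 CPM (45.1 to 51.5) in WT HFD and 42.8 CPM (40.0 to 45.7) in KO HFD. Over all FAP-like cells both libraries from mice on the high-fat diet were low, and their intervals overlapped only each other's. A UMI was found in 402 of 2246 FAP-like cells of WT CD (17.9%, 16.3 to 19.5), in 165 of 1993 of WT HFD (8.28%, 7.11 to 9.58) and in 202 of 2413 of KO HFD (8.37%, 7.30 to 9.55). After thinning each cell to 3000 UMIs, which left out 70, 36 and 57 shallower cells, the shares were 13.5%, 5.93% and 5.73%. In macrophage-like cells, which served as the measure of free RNA, the share was 0.424%, 0 of 409 cells (a limit of 3 counts is 0.733%, the exact upper bound 0.898%) and 0.224%, at median depths of 10256.5, 9524 and 9825 UMIs.

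Outside FAP-like cells *Sult1e1* was counted in 28 of 5623 cells, which together held 147 UMIs, and 11 of the 28 were called doublets. The 28.7 CPM of the endothelial-like class in WT CD came from a single cell with 35 UMIs, which was one of these doublets. In B cell-like cells 18 UMIs in WT CD lay in 4 cells and 23 UMIs in WT HFD in 2 cells. Those B cell-like cells had a median *Dcn* count of 80 and 144.5 UMIs, whereas the median was 0 in the others of that class. The endothelial-like and B cell-like levels of *Sult1e1* thus rested on a few cells that also carried the FAP transcript *Dcn*. Cells in clusters without a class name held a further 39, 0 and 4 UMIs, and the lone positive T or NK cell-like cell had 1 UMI. MuSC-like cells (muscle stem cells) held 1 *Sult1e1* UMI among 1199 cells.

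**Figure D1:**
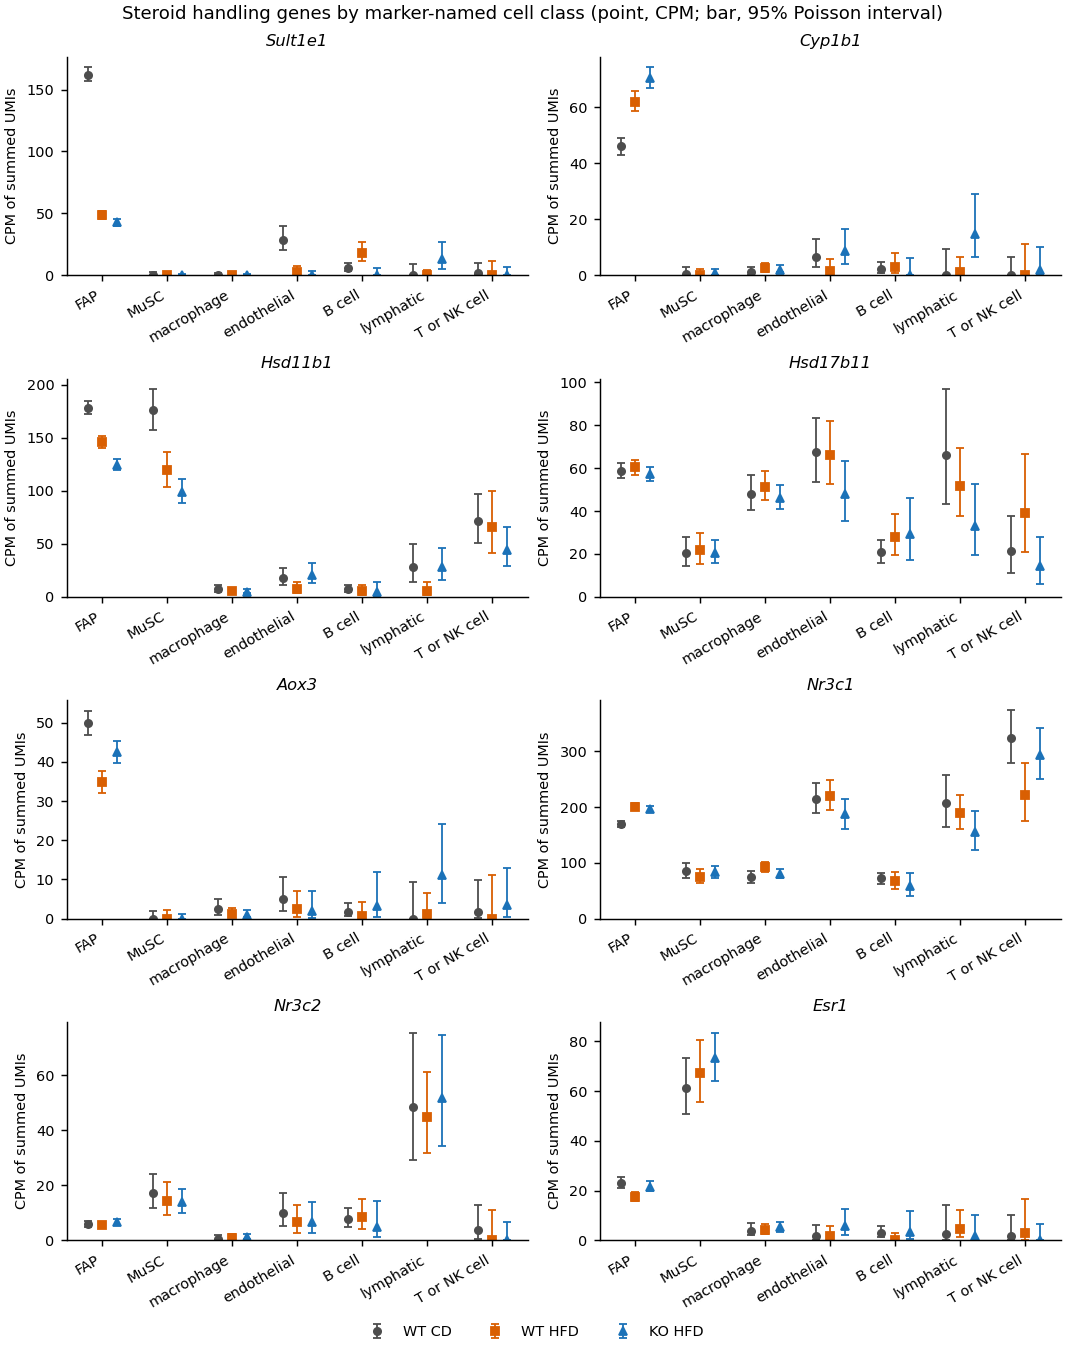
Level of each gene (CPM of summed UMIs, y axis, linear from 0, one scale per panel) in the 7 cell classes with at least 50 cells in every library. Points are libraries and bars are exact 95% Poisson intervals. *Sult1e1*, *Cyp1b1* and *Aox3* are highest in FAPs, *Esr1* in MuSCs and *Nr3c2* in lymphatic cells.

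*Cyp1b1* and *Aox3* had the same class as *Sult1e1*. FAP-like cells held 94.5%, 95.6% and 94.9% of *Cyp1b1* UMIs and 95.1%, 96.2% and 95.9% of *Aox3* UMIs in WT CD, WT HFD and KO HFD. *Cyp1b1* stood at 46.0 CPM in WT CD, 61.9 CPM in WT HFD and 70.4 CPM in KO HFD in these cells, and was found in 22.5%, 29.95% and 32.7% of them, or in 10.7%, 15.6% and 15.7% after thinning. *Aox3* stood at 49.8, 34.8 and 42.5 CPM in the same order, in 23.6%, 18.01% and 21.5% of cells, or 11.2%, 9.40% and 10.9% after thinning. Macrophage-like cells, deeper than FAPs, had *Cyp1b1* in 1.27%, 2.44% and 2.01% and *Aox3* in 1.27%, 0.489% and 0.895% of cells. The enzymes therefore did not share an order of libraries, *Cyp1b1* being lowest and *Aox3* and *Sult1e1* highest in WT CD. No *Aox3* UMI was found in MuSC-like cells of any library, where a limit of 3 counts is 1.57, 1.71 and 0.965 CPM (the exact upper bounds are 1.93, 2.11 and 1.19 CPM).

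*Hsd11b1* was carried by both FAPs and muscle stem cells. Its level was 179 CPM (172.8 to 184.6) in FAP-like and 176 CPM (157.9 to 196.0) in MuSC-like cells of WT CD, 146 CPM (140.9 to 151.9) and 119 CPM (103.7 to 136.6) in WT HFD, and 125 CPM (120.0 to 129.6) and 99.1 CPM (88.3 to 110.8) in KO HFD. The intervals of both classes overlapped in WT CD, whereas in both high-fat libraries the FAP-like level was the higher. A UMI was found in 49.2%, 43.9% and 39.3% of MuSC-like cells at median depths of 4442, 5285.5 and 5622 UMIs. Thinned to 3000 UMIs, the shares were 40.2%, 30.7% and 23.7%. In B cell-like cells the share was 3.56%, 3.85% and 3.23% at 7876, 7134 and 4578 UMIs, far under both classes. FAP transcripts in the MuSC-like cells were few, with *Dcn* at 135, 102 and 141 CPM. Among the 7 classes with at least 50 cells in each library, T or NK cell-like cells came next with 71.5, 66.0 and 44.6 CPM of *Hsd11b1*, but their *Dcn* level was 1146, 1244 and 1286 CPM, and the part of FAP RNA in that value was not tested. In lymphatic-like cells 11, 5 and 15 UMIs gave 28.04, 5.89 and 27.7 CPM, and in endothelial-like cells 22, 9 and 22 UMIs gave 18.1, 7.34 and 21.1 CPM. WT HFD was therefore lowest in these classes, unlike in FAP-like cells. Their *Dcn* levels were 476.7, 841.9 and 2268 CPM and 1218, 710.0 and 1481 CPM, and its part in these values was not tested either.

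*Hsd17b11* was spread over many classes. FAP-like cells had 58.8, 60.4 and 57.1 CPM, endothelial-like cells 67.4, 66.0 and 47.9 CPM, and macrophage-like cells 48.0, 51.4 and 46.3 CPM in WT CD, WT HFD and KO HFD. Intervals of FAP-like and endothelial-like cells overlapped in every library. MuSC-like cells were lower than FAP-like cells in all 3 libraries, at 20.4, 21.7 and 20.6 CPM. Lymphatic-like cells had 66.3, 51.8 and 33.2 CPM from 26, 44 and 18 UMIs, and T or NK cell-like cells 21.5, 39.0 and 14.3 CPM from 12, 13 and 8 UMIs. Intervals of the 3 libraries overlapped in both of these classes, although some ratios passed 1.5-fold. In T or NK cell-like cells the log2 ratio of WT HFD to WT CD was 0.86 (-0.39 to 2.12). That of KO HFD to WT HFD was -1.45 (-2.93 to -0.07), an interval without 0. In lymphatic-like cells these ratios were -0.36 (-1.09 to 0.40) and -0.64 (-1.52 to 0.18).

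The receptors differed in where they were highest. Among the 7 classes with at least 50 cells in each library, *Nr3c1* was highest in T or NK cell-like cells, at 324, 222 and 293 CPM, although in WT HFD its interval (174.2 to 278.6) overlapped those of endothelial-like cells (194.6 to 248.0) and FAP-like cells (194.2 to 207.1). FAP-like cells had 169, 201 and 196 CPM with a UMI in 70.0%, 77.6% and 75.0% of cells. *Nr3c1* was lower in MuSC-like cells, at 85.7, 75.4 and 83.0 CPM. *Nr3c2* was highest in lymphatic-like cells, at 48.4 CPM (29.2 to 75.6), 44.7 CPM (31.7 to 61.4) and 51.7 CPM (34.4 to 74.7) from 19, 38 and 28 UMIs. MuSC-like cells followed with 17.3, 14.3 and 13.8 CPM, and FAP-like cells had only 5.96, 5.49 and 6.66 CPM, under the 20 CPM minimum used below. *Esr1* was highest in MuSC-like cells, at 61.2 CPM (50.6 to 73.3) in WT CD, 67.4 CPM (55.8 to 80.7) in WT HFD and 73.4 CPM (64.1 to 83.5) in KO HFD. FAP-like cells followed at 23.2, 17.5 and 21.6 CPM, and none of these intervals reached those of the MuSC-like cells. A UMI of *Esr1* was found in 22.8%, 31.6% and 34.2% of MuSC-like cells, beside 0.639%, 0.649% and 1.16% of endothelial-like cells at 3255, 3491 and 3159 UMIs.

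Within FAPs, *Sult1e1*, *Cyp1b1* and *Aox3* were highest in the same state and *Hsd11b1* in another. The 6652 FAP-like cells were split into 5 states without use of any steroid gene or of the 111 genes that stood 1.5-fold or more apart between libraries in these cells. Names were tried for FAP1, FAP2 and FAP4 of the study only, so no state could be named FAP3 or FAP5. State 1 (1822 cells, led by *Postn* and *Timp1*) and state 3 (1237 cells, led by *C4b* and *Col6a5*) met no name. State 2 was FAP1-like (1424 cells, *Cxcl14* and *Mme*), state 4 FAP2-like (1113 cells, *Cmah* and *Wnt10b*) and state 5 FAP4-like (1056 cells, *Fmod* and *Sfrp2*).

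In state 3 *Sult1e1* stood at 422 CPM (402.0 to 443.4) in WT CD, 133 CPM (119.8 to 146.9) in WT HFD and 92.2 CPM (84.0 to 101.0) in KO HFD. That state held 50.4%, 41.8% and 51.4% of the FAP-like *Sult1e1* UMIs from 18.3%, 14.6% and 22.2% of the FAP-like cells. States 1, 4 and 5 lay between 116 and 142 CPM in WT CD, between 41.1 and 50.3 CPM in WT HFD and between 18.7 and 56.4 CPM in KO HFD. These levels depended on how the cells were grouped, since the group led by *Postn* and *Sfrp4* with 7 states stood at 44.0, 10.38 and 4.15 CPM, and the Leiden cluster led by *Dact2* and *Stmn4* at 52.4, 16.6 and 22.5 CPM. State 2 was lowest in each library with 16, 3 and 2 UMIs, or 4.84, 0.774 and 0.469 CPM, among 429, 443 and 552 cells. The FAP1-like state thus carried almost no *Sult1e1*. The Leiden cluster led by *Cxcl14* and *Mme* held 56, 3 and 7 UMIs, or 16.2, 0.965 and 1.69 CPM, so its WT CD level was higher. The one led by *Has1* stood at 45.0 CPM in WT CD, 17.9 CPM in WT HFD and 51.0 CPM in KO HFD. KO HFD (43.0 to 60.0) was thus not lower than WT CD (36.8 to 54.6) there, from 145 UMIs in 23 positive cells. With cells thinned to 3000 UMIs a *Sult1e1* UMI was present in 32.01%, 15.6% and 12.2% of state 3 cells and in 0.721%, 0.227% and 0% of state 2 cells.

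*Cyp1b1* in state 3 stood at 117 CPM (106.2 to 128.2) in WT CD, 144 CPM (130.8 to 159.1) in WT HFD and 136 CPM (126.1 to 146.8) in KO HFD, and no other state exceeded 62.2 CPM in any library. *Aox3* in state 3 stood at 97.5 CPM (87.8 to 107.9), 72.03 CPM (62.5 to 82.6) and 81.2 CPM (73.5 to 89.5) in the same order. Of the 5 states its lowest was state 2, with 7.86, 4.13 and 10.1 CPM. Among FAP-like Leiden clusters it was lowest in the one led by *Dio2* and *Sfrp4*, at 11.7, 8.55 and 6.20 CPM. The cluster led by *Cxcl14* and *Mme* had 23.5, 15.1 and 26.3 CPM. *Hsd11b1* had another highest state, since state 2 held 463 CPM (440.1 to 486.7) in WT CD, 392 CPM (372.8 to 412.4) in WT HFD and 338 CPM (321.2 to 356.4) in KO HFD. State 5 followed at 181, 131 and 122 CPM, and state 4 was lowest at 71.2, 39.9 and 39.2 CPM. In state 2 a UMI of *Hsd11b1* was found in 83.9%, 84.0% and 72.1% of cells.

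The other 4 genes varied less between states. *Nr3c1* ranged from 142 to 199 CPM over the 5 states of WT CD, from 175 to 232 CPM in WT HFD and from 161 to 213 CPM in KO HFD, with state 1 lowest and state 2 highest each time. *Hsd17b11* ranged from 47.0 to 71.0, from 56.0 to 73.5 and from 52.0 to 65.6 CPM. *Esr1* ranged from 18.1 to 27.4, from 12.7 to 30.4 and from 17.1 to 25.7 CPM. *Nr3c2* stayed under 9 CPM in every state and library.

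**Figure D2:**
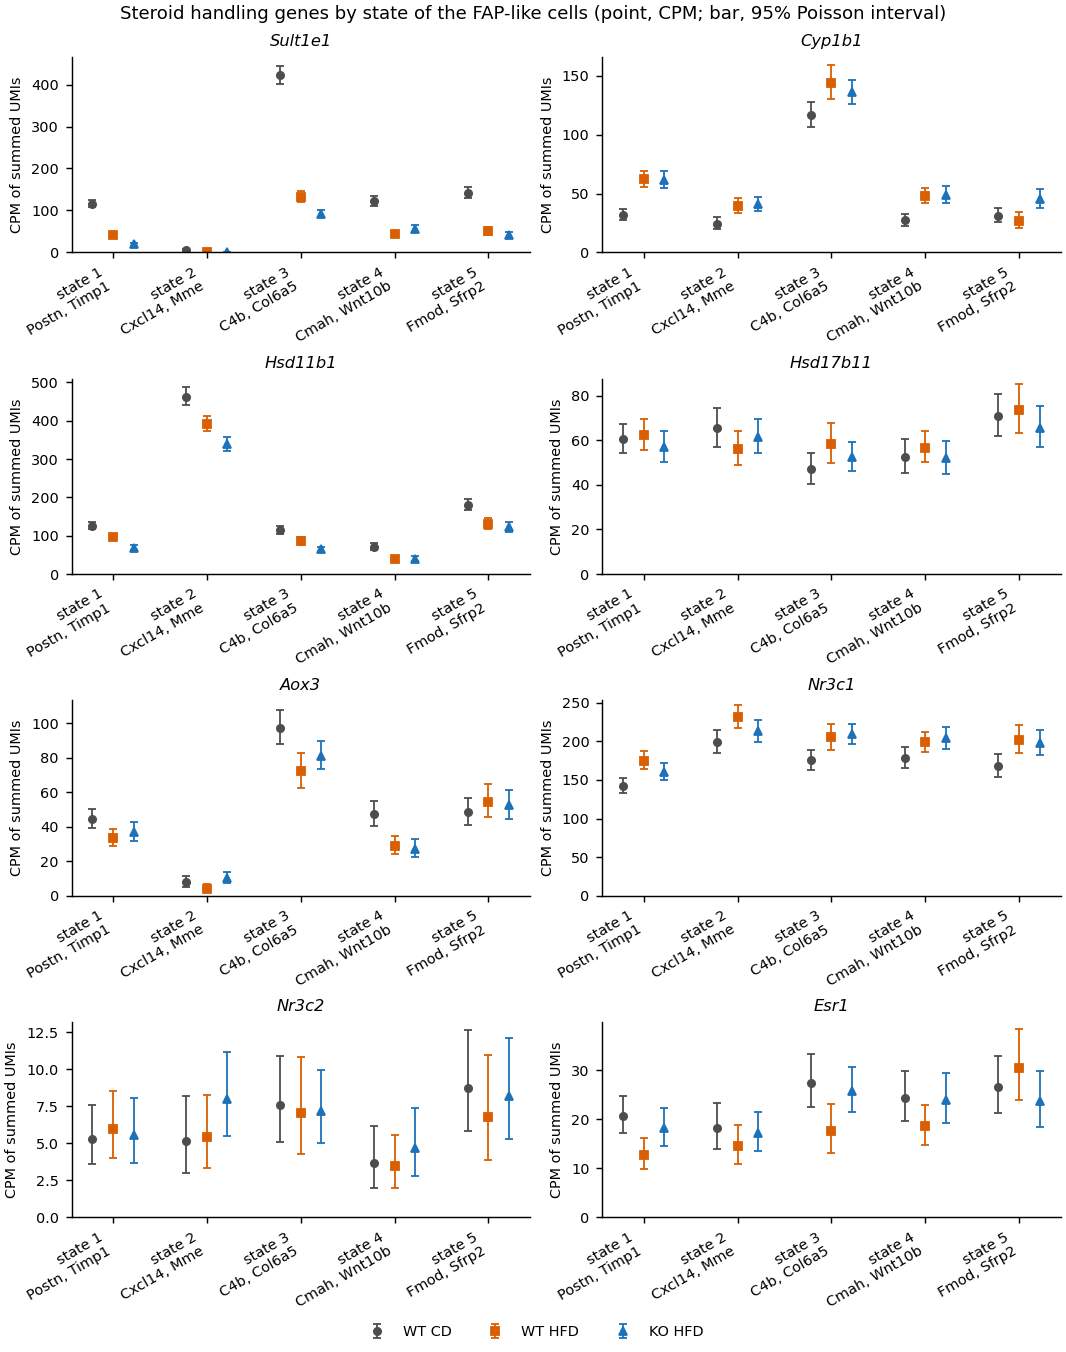
Level of each gene (CPM of summed UMIs, y axis, linear from 0) in the 5 states of the FAP-like cells, named by state number and 2 leading genes. Points are libraries and bars are exact 95% Poisson intervals. *Sult1e1*, *Cyp1b1* and *Aox3* peak in state 3, and *Hsd11b1* peaks in state 2 in every library.

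Detection in single cells was counted over all FAP-like cells of a library. The states were not held apart, so these shares partly restate the state levels above. Among FAP-like cells thinned to 3000 UMIs, *Aox3* was found in 31.3% (26.0 to 36.9) of cells with *Sult1e1* and 8.08% (6.89 to 9.40) of cells without it in WT CD. In WT HFD these shares were 36.2% (27.5 to 45.6) and 7.71% (6.54 to 9.03), and in KO HFD 35.6% (27.5 to 44.3) and 9.46% (8.27 to 10.7). *Cyp1b1* also was detected more often beside *Sult1e1*, in 20.1% against 9.19% of cells in WT CD, 31.9% against 14.6% in WT HFD and 31.9% against 14.8% in KO HFD. *Hsd11b1* was detected less often beside *Sult1e1*, in 20.1% against 34.2%, 8.62% against 29.8% and 11.9% against 25.5% of cells. For each of these 3 genes the intervals of both shares were apart in all 3 libraries. *Nr3c1* was found in 31.6% against 39.6% of cells in WT CD (26.4 to 37.3 and 37.4 to 41.8), where the intervals were barely apart, and in 41.4% against 45.2% and 45.2% against 43.7% in the other 2 libraries, where they overlapped. *Esr1* was found in 8.50% against 5.79% of cells in WT CD, 11.2% (6.104 to 18.4) against 4.62% (3.70 to 5.68) in WT HFD and 8.15% against 6.12% in KO HFD, with intervals apart in WT HFD alone. *Hsd17b11* and *Nr3c2* had overlapping intervals in every library.

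Over the 15 sums of 5 states and 3 libraries, the genes with the pattern most like *Sult1e1* were *Aox3* (Pearson r = 0.915 on log2(CPM + 1)), *Isyna1* (r = 0.894), *Lrrc17* (r = 0.892), *Cdon* (r = 0.888) and *Npr1* (r = 0.885), out of 6945 genes. *Isyna1* encodes inositol-3-phosphate synthase, *Cdon* a Hedgehog co-receptor and *Npr1* a natriuretic peptide receptor. The r of *Cyp1b1* with *Sult1e1* was 0.368 and that of *Hsd11b1* was -0.63. These sums share libraries and depth, and the coefficients describe them only.

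*Sult1e1* was the 1 gene of the 8 that stood 1.5-fold or more apart between the FAP-like cells of WT HFD and WT CD, the question of diet. It was 3.36-fold lower in WT HFD, a log2 ratio of -1.75 (-1.86 to -1.64). Of the 8 genes, 7 reached 20 CPM in 1 of these libraries, and 1 of the 7 passed 1.5-fold, in the lower direction. Over all 5771 genes at that level, 1.2% passed, 0.554% being higher and 0.641% lower in WT HFD. Only 1 of the 5771 had a lower ratio than *Sult1e1*. As these values chose the genes, nothing is read from that place or from the count.

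The other enzymes differed less. *Aox3* was nearest to the 1.5-fold limit, at a log2 ratio of -0.52 (-0.66 to -0.37), 1.43-fold lower in WT HFD. *Cyp1b1* was 1.35-fold higher, at 0.43 (0.30 to 0.56), and *Hsd11b1* 1.22-fold lower, at -0.29 (-0.36 to -0.22). *Hsd17b11* was at 0.04 (-0.08 to 0.16). Of the receptors, *Esr1* was at -0.41 (-0.62 to -0.20), *Nr3c1* at 0.24 (0.18 to 0.31) and *Nr3c2*, from 103 and 118 UMIs, at -0.12 (-0.52 to 0.27). The median log2 ratio was -0.20 over the 8 genes and 0.09 over all genes tested. Intervals of 6 of the 8 genes did not include 0, which covers the counting of UMIs and not the spread between mice.

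Between KO HFD and WT HFD, the comparison of genotype on the high-fat diet, 0 of the 7 genes at 20 CPM stood 1.5-fold apart. Over all 5798 genes at that level 0.638% did, 0.397% being higher and 0.241% lower in KO HFD. This comparison shares the WT HFD library with the comparison of diet. *Sult1e1* was at a log2 ratio of -0.17 (-0.31 to -0.04) and *Hsd11b1* at -0.23 (-0.31 to -0.15). *Esr1* was at 0.30 (0.10 to 0.51), *Aox3* at 0.29 (0.14 to 0.44) and *Cyp1b1* at 0.19 (0.07 to 0.30). *Hsd17b11* was at -0.08 (-0.20 to 0.04), *Nr3c1* at -0.03 (-0.10 to 0.03) and *Nr3c2*, from 140 and 103 UMIs, at 0.28 (-0.10 to 0.66). The median was 0.08 over the 8 genes and -0.05 over all genes tested. In FAP-like cells *Hsd11b1* was thus lowest in KO HFD and highest in WT CD, and *Cyp1b1* the reverse, although its ratio of KO HFD to WT HFD was -0.04 at Leiden resolution 2.

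**Figure D3:**
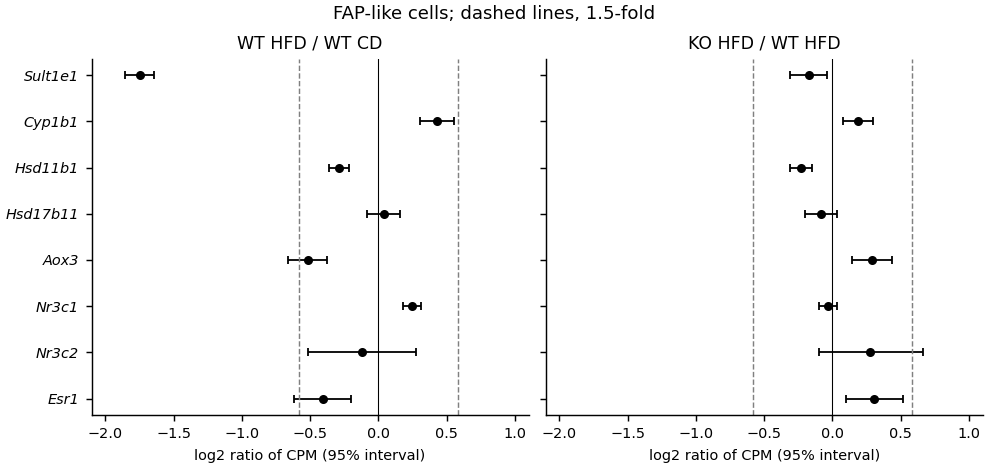
Log2 ratio of CPM in FAP-like cells (x axis) for each gene, WT HFD over WT CD on the left and KO HFD over WT HFD on the right. Points are ratios, bars exact 95% intervals for counting error, and dashed lines mark 1.5-fold. *Sult1e1* on the left, at -1.75, is the single point beyond a line.

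The lower *Sult1e1* of WT HFD was seen in every FAP state. The log2 ratio to WT CD was -1.50 (-1.73 to -1.27) in state 1, -1.67 (-1.83 to -1.51) in state 3, -1.52 (-1.77 to -1.28) in state 4 and -1.50 (-1.80 to -1.21) in state 5. In state 2 it was -2.64 (-5.06 to -0.84), from 3 and 16 UMIs. Between KO HFD and WT HFD the states differed in sign, with -1.13 (-1.51 to -0.77) in state 1, -0.53 (-0.73 to -0.33) in state 3, 0.40 (0.12 to 0.69) in state 4 and -0.27 (-0.64 to 0.10) in state 5. In state 2 this ratio was -0.72 (-4.30 to 2.40), from 2 and 3 UMIs. The genotype ratio over all FAP-like cells therefore stood for unlike values, and the difference between states was not tested. *Cyp1b1* between WT HFD and WT CD was 0.98 (0.71 to 1.25) in state 1, 0.82 (0.47 to 1.17) in state 4, 0.68 (0.28 to 1.09) in state 2, 0.31 (0.11 to 0.50) in state 3 and -0.21 (-0.69 to 0.26) in state 5. Its largest ratios were thus outside the state where its level was highest. *Hsd11b1* was lower in WT HFD than in WT CD in all 5 states, from -0.84 (-1.12 to -0.56) in state 4 to -0.24 (-0.34 to -0.14) in state 2. For *Aox3* the same ratio was -0.42, -0.93 (from 16 and 26 UMIs), -0.44, -0.70 and 0.17 in states 1 to 5. *Esr1* had -0.70, -0.33, -0.64, -0.39 and 0.20. Both genes thus passed 1.5-fold in some states and had the other sign in state 5, where their intervals included 0.

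Cells with many *Sult1e1* molecules were most frequent in WT CD. FAP-like cells with at least 10 UMIs numbered 103 in WT CD (4.59% of FAP-like cells), 27 in WT HFD (1.35%) and 21 in KO HFD (0.870%). They held 66.4%, 44.0% and 37.3% of all FAP-like *Sult1e1* UMIs. The cell with the highest count had 86 UMIs in WT CD, 28 in WT HFD and 29 in KO HFD. Among cells with any *Sult1e1* UMI the mean was 7.98, 5.48 and 4.45 UMIs and the median 4, 4 and 3, so the mean count per positive cell was lower in both high-fat libraries and the median in KO HFD alone. *Hsd17b11*, by contrast, never exceeded 7 UMIs in a cell.

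**Figure D4:**
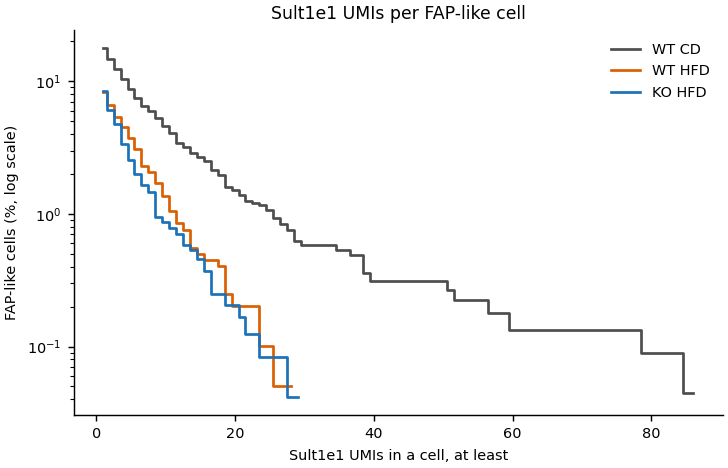
Share of FAP-like cells (y axis, percent, log scale) with at least the number of *Sult1e1* UMIs on the x axis, 1 line per library. The WT CD line lies above both high-fat lines throughout, and it runs to 86 UMIs where they end at 28 and 29.

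Signs of other cells in the FAP-like sums were small, with exceptions. The 3 erythroid markers summed to 2.17 CPM in WT CD, 38.4 CPM in WT HFD and 2.85 CPM in KO HFD, led by *Hbb-bs* (3 of 3, 2 of 3 and 3 of 3 found, *Alas2* being at 0 in WT HFD). The 4 tenocyte markers, all found in each library, summed to 935, 934 and 780 CPM, nearly all from *Thbs4*. The 4 adipocyte markers summed to 0.202, 0.213 and 2.05 CPM, led by *Adipoq*, with *Cidec* and *Lep* at 0 in both WT libraries. The 4 macrophage markers, all found, summed to 5.21, 5.65 and 7.13 CPM, led by *Cd68*. The 3 monocyte markers summed to 54.5, 53.5 and 62.9 CPM, nearly all from *Plac8*, with *Chil3* at 0 in both WT libraries, and the 4 myofiber markers, led by *Acta1*, to 25.1, 19.9 and 19.2 CPM. No other marker list exceeded 12.7 CPM in a library. Their part in the ratios was not tested.

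In MuSC-like cells 4 of the 8 genes reached 20 CPM and 0 stood 1.5-fold apart in either comparison. Over all genes at that level 19.9% of 4945 did between WT HFD and WT CD and 5.6% of 4949 between KO HFD and WT HFD. *Hsd11b1* was closest to the limit, 1.48-fold lower in WT HFD than in WT CD at a log2 ratio of -0.56 (-0.82 to -0.31). Between KO HFD and WT HFD it was at -0.27 (-0.53 to -0.01). *Esr1* was at 0.14 (-0.24 to 0.52) and 0.12 (-0.20 to 0.46), and *Nr3c1* at -0.19 (-0.53 to 0.15) and 0.14 (-0.17 to 0.45). *Hsd17b11* was at 0.09 (-0.59 to 0.77) and -0.08 (-0.68 to 0.54).

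Other genes of steroid handling were read from 7 wider lists in FAP-like cells. Of the 35 further steroid-converting enzymes counted, 10 reached 20 CPM in WT HFD or WT CD and 1 was 1.5-fold lower in WT HFD, beside the 1.2% of all genes. This was *Por*, the reductase that passes electrons to cytochrome P450 enzymes, with 86.0 CPM in WT CD, 53.8 CPM in WT HFD and 59.5 CPM in KO HFD (log2 ratio of WT HFD to WT CD -0.68, -0.79 to -0.56). *Hsd17b10*, a mitochondrial dehydrogenase, had 84.9, 82.6 and 85.8 CPM. Of 12 sulfation and desulfation genes 5 reached the level and 0 passed. *Sult5a1*, another sulfotransferase, had 66.9, 53.9 and 68.4 CPM. *Papss1*, which makes the sulfate donor, had 42.7, 45.4 and 40.1 CPM. Neither therefore had the order of libraries seen for *Sult1e1*. *Papss2*, of the same list, did have it, at 29.3, 27.1 and 25.3 CPM. Its log2 ratio of WT HFD to WT CD was -0.11 (-0.28 to 0.07). Of 10 genes for molybdenum hydroxylases and their cofactor 3 reached the level and 0 passed. *Xdh* (xanthine dehydrogenase) had 86.7, 97.2 and 102 CPM and *Mocs2*, for cofactor synthesis, 58.0, 66.2 and 59.1 CPM.

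Of 6 further receptors and membrane steroid-binding proteins 3 reached 20 CPM and 0 passed, beside the 1.2% of all genes between WT HFD and WT CD, which is also the background of the next 3 lists. *Pgrmc1*, a membrane protein named for progesterone binding, had 139, 113 and 131 CPM. All 11 genes of the list of receptor chaperones and cofactors reached the level. The 1 that passed was *Nr2f1*, an orphan nuclear receptor and neither a chaperone nor a classical cofactor, from 22.9 CPM in WT CD to 14.2 CPM in WT HFD (log2 ratio -0.69, -0.91 to -0.46). It reached 20 CPM only in WT CD, the library where it was high, so nothing is read from its passing. *Hsp90ab1* and *Hspa8*, the chaperones with the most UMIs, had 1763, 1764 and 1729 CPM and 1808, 1478 and 1720 CPM. Of 13 glucocorticoid-induced genes 12 reached the level and 1 was higher in WT HFD, *Zbtb16* (a zinc finger repressor), at 30.6 CPM in WT CD and 46.2 CPM in WT HFD (0.60, 0.44 to 0.75). The others of that list, with *Mt1* (a metallothionein) at 1593, 1660 and 2134 CPM and *Cebpd* at 708, 780 and 950.5 CPM, did not pass. Of 7 aryl hydrocarbon receptor genes 2 reached the level, *Tiparp* at 98.5, 106 and 127 CPM and *Arnt* at 40.1, 42.3 and 42.3 CPM, and 0 passed. Between KO HFD and WT HFD 0 genes of the 7 lists passed, beside the 0.638% of all genes. The median log2 ratio of the lists lay between -0.11 and 0.19 for diet and between -0.11 and 0.20 for genotype.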

How the data were processed

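UMI counts per gene and cell were deposited for 3 libraries, made by the authors with Cell Ranger (6.1.1 in the submitters' processing notes, 6.1.0 in the file headers) on mm10. All 12275 barcodes were kept, as raw counts with no deposited cell annotation. Cells were clustered in Scanpy 1.11.5 (2000 variable genes, 30 components, 15 neighbours, Leiden resolution 1) without 102 steroid genes. A cluster took a class name when at least 3 markers averaged a log2 ratio of 1 or more. After leading genes were seen, 1 cluster led by glial genes and 1 by plasma cell genes were left unnamed. FAP-like cells were split by k-means into 5 states, named at a mean log2 ratio of 0.5. Doublets were called by Scrublet (1.26%, 1.09% and 1.33% of WT CD, WT HFD and KO HFD) and kept. UMIs were summed by class, state and library and divided by total UMIs (CPM). With 1 library per group no test was run. A difference meant 1.5-fold or more, the fold limit of the study's methods, at 20 CPM or more in 1 of the 2 libraries. The genes named were the 8 chosen ones, the genes of the wider lists past 1.5-fold and the 2 genes with the most FAP UMIs in each list. The 5 most like *Sult1e1* were named too, and *Papss2* for its order of libraries. Some genes this rule names are not reported here. Members, lists and rules were chosen with earlier results of these data known. Alternatives covered the choice of cells, doublets, scaling (edgeR 4.0.16 TMM among them), depth, state mix, fold and minimum level.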

Additional observations from a re-analysis of the deposited data

How the results depend on the processing

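*Sult1e1* in FAP-like cells was more than 1.5-fold lower in WT HFD under all 11 alternatives. Against WT CD alone the log2 ratio ran from -1.88 to -1.56. Against WT CD and KO HFD combined *Sult1e1* stood at -1.06. It left the interval of the reported -1.75 at Leiden resolution 2 (-1.56), with the 5 states weighted alike (-1.59), thinned to 3000 UMIs (-1.88) and against the 2 other libraries combined (-1.06). Its KO HFD to WT HFD ratio, reported as -0.17, was -0.47, -0.35, -0.0017 and -1.32 under the same 4 settings. In the last, KO HFD is set against a sum that includes WT CD. With TMM factors 2 genes were 1.5-fold apart between WT HFD and WT CD in place of 1, as *Aox3* reached -0.59, and against the 2 other libraries combined 1 gene (*Sult1e1*) was apart for KO HFD in place of 0. Other settings brought some ratios of WT HFD nearer to no change. *Aox3*, reported as -0.52, ran from -0.59 to -0.20, and *Cyp1b1*, reported as 0.43, from 0.08 to 0.56. *Hsd11b1*, reported as -0.29, ran from -0.36 to -0.04. The 0.08 and the -0.04 set WT HFD against WT CD and KO HFD combined, not against WT CD alone. Of 176 ratios over all 8 genes, 147 stayed within the reported interval and 29 moved. The 1 reported ratio past 1.5-fold, that of *Sult1e1* between WT HFD and WT CD, kept its sign under all 11 alternatives. Ratios under 1.5-fold did change sign for KO HFD to WT HFD in *Aox3* (-0.0014 against the 2 other libraries combined), *Cyp1b1* (-0.04 at resolution 2) and *Nr3c1* (0.09 against the 2 others combined and 0.0061 with TMM factors), and for WT HFD to WT CD in *Hsd17b11* (-0.03 with TMM factors). The CPM of a gene in its highest FAP state moved in 25 of 72 values. These cover 7 states or Leiden clusters in place of 5 states, and removal of doublets, which left the grouping as it was. With 7 states *Sult1e1*, *Cyp1b1* and *Aox3* again shared their highest state, at 571, 142 and 121 CPM in WT CD, while *Hsd11b1* was highest in 1 state in WT CD and in another in both high-fat libraries. *Sult1e1* in Leiden cluster 3, led by *Dio2* and *Sfrp4*, was 19.7, 10.35 and 7.09 CPM, below the 116, 41.1 and 18.7 CPM of state 1. All 24 shares of FAP-like cells with a UMI moved on thinning. The percentage of tested genes 1.5-fold apart moved in 7 of 24 values. For WT HFD and WT CD it was 1.2 as reported, 1.93 at resolution 2, 0.243 at 2-fold and 28.0 with no minimum level. For KO HFD and WT HFD it was 0.638 as reported, 0.978 for cells gated one by one, 0.378 with states weighted alike, 0.121 at 2-fold and 26.9 with no minimum. Leaving out FAP-like clusters led by a tenocyte marker gave no value, as there were none. No replicate could be left out and no paired analysis was possible because each group is 1 library. Depth limits *Nr3c2* (103 to 140 UMIs in FAP-like cells) and classes of few cells, and no interval covers the spread between mice.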

Other observations

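Classes too small for the comparisons above also carried some of these genes. In monocyte-like cells (17, 30 and 65 cells in WT CD, WT HFD and KO HFD) *Hsd11b1* stood at 139, 47.1 and 26.3 CPM from 13, 7 and 10 UMIs, and was found in 47.1%, 23.3% and 15.4% of cells. In mural cell-like cells (17, 29 and 27 cells) *Cyp1b1* had 0, 3 and 14 UMIs, or 0, 16.4 and 87.1 CPM. Mesothelial-like cells (40, 86 and 51 cells), which line the surface of the diaphragm, had *Aox3* at 23.7, 12.7 and 14.5 CPM, *Cyp1b1* at 21.6, 11.7 and 30.8 CPM and *Esr1* at 17.2, 23.4 and 25.4 CPM, but 0 *Sult1e1* UMIs in every library. *Hsd17b11* in the same cells was found in 67.5%, 44.2% and 27.5% of cells at median depths of 10511, 10218.5 and 9139 UMIs.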
